A study of Homo sapiens with 12 samples.

Results

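The aminoacyl-tRNA synthetase genes were followed in relapses of HEL cells, an established human acute myeloid leukemia (AML) cell line of erythroid and megakaryocytic character that had been tagged with DNA barcodes. Members were chosen by name from the gene count table: symbols of the form letter-ARS or letter-ARS2, with EPRS, FARSA and FARSB. This gave 37 of 26481 genes with counts, 20 cytosolic and 17 mitochondrial (symbols ending in 2), and all 37 were among the 14164 genes tested. The groups were cells kept without drug in 0.1 µM DMSO (NT, n = 2) and cells regrown after 1.8 µM doxorubicin (Doxo, n = 3), after doxorubicin with 6 µM cytarabine (Doxo+Cyta, n = 3) or after both drugs with 0.1 µM decitabine, a DNA hypomethylating agent (Doxo+Cyta+DAC, n = 4). Drugs were present for 72 to 74 h, live cells were enriched and regrown for about 30 days, and every group descends from the same barcoded line, so that no second line or patient stands behind these values. The labels state that each condition was run in at least 3 biological replicates per experiment, without saying how the sequenced libraries relate to those cultures, so that p-values measure the spread between these libraries.

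Aminoacyl-tRNA synthetases join each amino acid to its tRNA, the step before ribosomes can use it. Cytosolic enzymes serve translation of nuclear transcripts, whereas mitochondrial enzymes, encoded in the nucleus and imported, serve the few proteins made inside mitochondria. GARS and KARS supply both compartments from 1 gene each, and QARS has no mitochondrial counterpart of its own. Several cytosolic enzymes (DARS, EPRS, IARS, KARS, LARS, MARS, QARS and RARS) are held together in the multisynthetase complex by the scaffold proteins AIMP1, AIMP2 and EEF1E1, and many cytosolic synthetase genes are known targets of ATF4, the transcription factor of the amino acid and stress response.

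ATF4 is known to act with C/EBP proteins at an element whose core is TGATGNAA. The windows of 250 bases before to 50 bases after the RefSeq start (GRCh38.p14) were searched for it on both strands, and 21 of the 37 genes had such a window. The core was found in 5 of the 21 (23.8%), against 3.62% of all 35116 windows of the same length. The 5 genes, shown because they are the ones that hold the core, are given from 220 bases before to 30 bases after their start along the gene's strand, with the core in capitals on whichever strand it was found, in order of their change in Doxo+Cyta+DAC relative to NT. They are IARS (chr9:92293668-92293917, minus strand), MARS (chr12:57487848-57488097, plus strand), YARS2 (chr12:32755868-32756117, minus strand), AARS (chr16:70289477-70289726, minus strand) and NARS (chr18:57621807-57622056, minus strand).
IARS: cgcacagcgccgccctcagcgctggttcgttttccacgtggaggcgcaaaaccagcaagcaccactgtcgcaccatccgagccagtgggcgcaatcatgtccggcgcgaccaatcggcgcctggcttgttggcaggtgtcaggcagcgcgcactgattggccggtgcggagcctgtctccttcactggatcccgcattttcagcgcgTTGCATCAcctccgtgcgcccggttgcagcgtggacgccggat
MARS: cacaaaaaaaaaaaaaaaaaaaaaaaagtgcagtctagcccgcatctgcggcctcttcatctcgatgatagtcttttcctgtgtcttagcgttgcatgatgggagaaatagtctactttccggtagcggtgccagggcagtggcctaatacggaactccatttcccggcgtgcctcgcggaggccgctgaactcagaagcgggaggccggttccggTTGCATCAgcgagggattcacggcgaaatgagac
YARS2: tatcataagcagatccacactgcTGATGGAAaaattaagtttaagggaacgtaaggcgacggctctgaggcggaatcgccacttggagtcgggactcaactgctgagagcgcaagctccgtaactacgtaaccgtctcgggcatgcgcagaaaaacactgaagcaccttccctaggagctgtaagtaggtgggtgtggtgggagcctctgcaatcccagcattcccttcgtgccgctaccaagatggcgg
AARS: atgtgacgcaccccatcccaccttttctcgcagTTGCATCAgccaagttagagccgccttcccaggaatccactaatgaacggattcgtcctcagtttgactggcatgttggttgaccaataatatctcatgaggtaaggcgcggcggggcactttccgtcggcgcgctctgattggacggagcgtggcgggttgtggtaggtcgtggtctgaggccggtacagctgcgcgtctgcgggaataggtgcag
NARS: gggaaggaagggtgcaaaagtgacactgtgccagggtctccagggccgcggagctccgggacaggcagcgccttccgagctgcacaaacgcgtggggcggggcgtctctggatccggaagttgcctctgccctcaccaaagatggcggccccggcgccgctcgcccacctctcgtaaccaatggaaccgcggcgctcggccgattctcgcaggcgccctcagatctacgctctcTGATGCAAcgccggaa
The first base of the core lay 13 bases before the start in IARS, 4 in MARS, 197 in YARS2 and 187 in AARS, and 14 bases after it in NARS. All 5 genes rose in Doxo+Cyta+DAC relative to NT, by log2 fold changes of 1.20, 1.08, 0.75, 0.60 and 0.53 in the order shown, in a comparison where 24.9% of all tested genes rose and 23.7% fell. The call of AARS was lost without either NT library. Of the 16 genes with a window without the core, 5 rose and 1 fell, and the difference between genes with and without the core was not tested. The remaining genes had no window and could not be searched. Among them CARS, GARS, SARS, TARS, VARS, WARS, YARS, AARS2, CARS2 and EARS2 rose, DARS fell, and LARS, FARS2, VARS2 and WARS2 did not pass the test. The genes with a window are therefore not a picture of all 37. Of the 11 cytosolic windows 4 held the core, and of the 10 mitochondrial ones 1 did. The E-box CACGTG, the site of MYC and related factors, was found in 2 of the 21 windows (9.52%), those of IARS and MARS2, against 7.26% of all windows. A match of letters is a description of the window and not evidence of binding.

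Total counts lay between 12763582 and 19106235 per library, and the synthetase genes took 0.399% to 0.583% of them. Levels are given in CPM (fragment counts relative to library sizes that were scaled by the TMM method), and every synthetase gene had at least 56 counts in every library, above the limit of 3 counts set for detection. A gene was said to rise or fall when edgeR's quasi-likelihood test, with Benjamini-Hochberg adjustment over the 14164 genes, gave an adjusted p under 0.05. Defining genes of the line were present: the 8 erythroid and megakaryocytic markers summed to between 5864 and 10321 CPM, while 10 markers of lymphoid, endothelial, epithelial and stromal cells summed to between 97.7 and 143 CPM, nearly all of it PECAM1 (96.5 to 142 CPM), which megakaryocytic cells also express, and MS4A1 was at 0 in all libraries. Doxo replicate 4 and Doxo+Cyta replicate 20 stood apart from their groups. The chi-square statistic per gene between libraries was 27.3 to 29.7 for Doxo 4 against the other Doxo libraries, which differed from each other by 3.10, and 46.7 to 48.5 for Doxo+Cyta 20 against the other Doxo+Cyta libraries, which differed by 7.33. Some of the results that rest on them are given with and without them. In bulk RNA, fewer cells of one kind and less RNA per cell cannot be told apart.

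Summed over the 20 cytosolic genes, the level was 3616 and 3586 CPM in NT, 3787, 3562 and 3580 in Doxo, 3516, 3669 and 3571 in Doxo+Cyta, and 4942, 5108, 4904 and 5048 in Doxo+Cyta+DAC. The 4 decitabine libraries lay above all others, and the other 3 groups overlapped. Summed over the 17 mitochondrial genes it was 748 and 731 CPM in NT, 643, 572 and 590.4 in Doxo, 629, 676 and 643 in Doxo+Cyta, and 862, 855, 855 and 787 in Doxo+Cyta+DAC. Here all 6 libraries of Doxo and Doxo+Cyta lay below NT, and all 4 decitabine libraries above it. The ratio of the cytosolic to the mitochondrial sum was 4.84 to 4.91 in NT, 5.89 to 6.23 in Doxo, 5.43 to 5.59 in Doxo+Cyta and 5.74 to 6.42 in Doxo+Cyta+DAC, so that every relapse library had a higher ratio than NT. In Doxo this came with lower mitochondrial sums, and in Doxo+Cyta+DAC with both sums above NT.

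The comparison of Doxo+Cyta+DAC with NT asked how the cytosolic and mitochondrial enzymes stood in relapses formed after chemotherapy with decitabine. Of the 20 cytosolic genes 15 rose and 2 fell, and of the 17 mitochondrial genes 6 rose and none fell (edgeR adjusted p under 0.05, 8 mitochondrial genes with an unadjusted p under 0.05, 7 of them higher, and 7 called by DESeq2, 1 of them lower). Over all tested genes 24.9% rose and 23.7% fell. The median log2 fold change was 0.75 over the cytosolic and 0.26 over the mitochondrial genes, and 0.02 over all tested genes. All 4 Doxo+Cyta+DAC libraries lay above both NT libraries for 17 cytosolic and 9 mitochondrial genes, and below them for 2 and 3, while 34.2% of all tested genes lay wholly above and 32.9% wholly below.

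**Figure D1:**
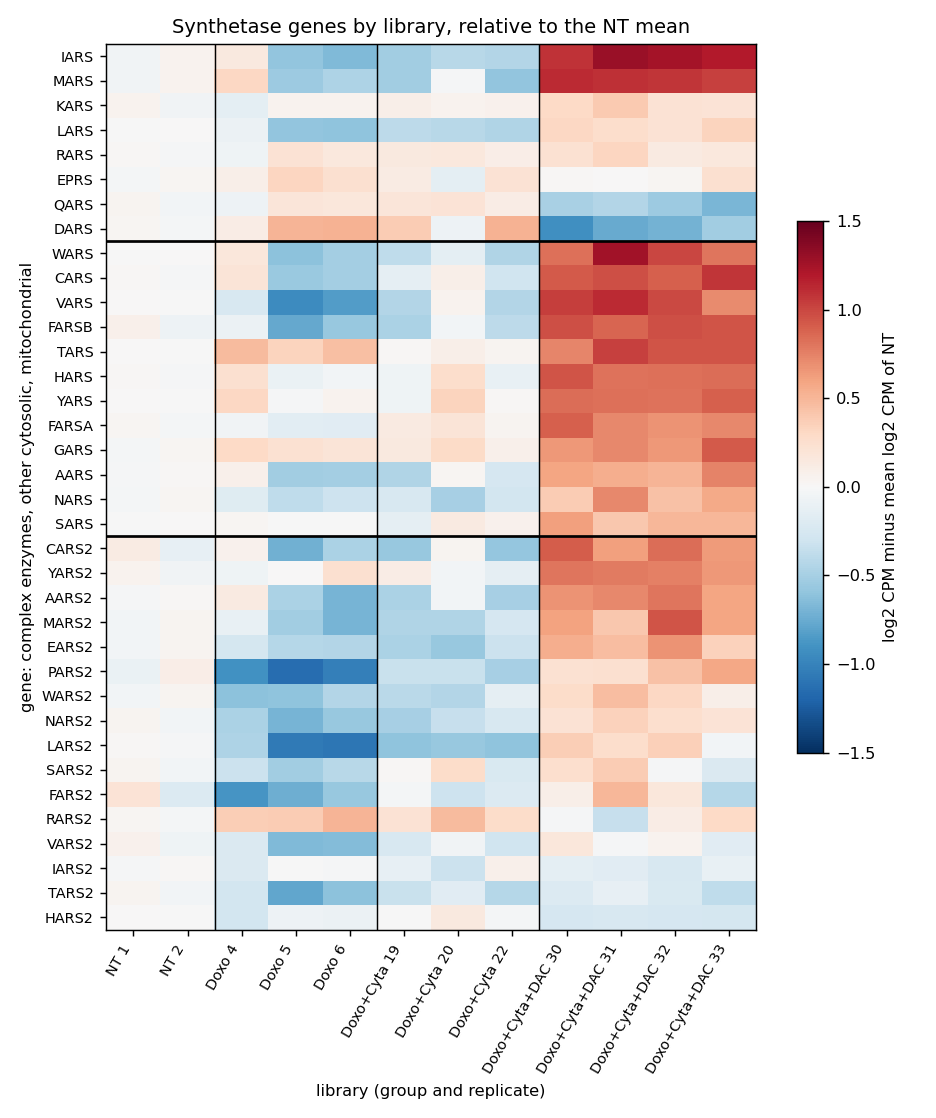
Each cell shows the log2 CPM of 1 synthetase gene (vertical) in 1 library (horizontal) minus the gene's mean log2 CPM in NT, in 3 blocks from top to bottom: 8 enzymes of the multisynthetase complex, 12 other cytosolic enzymes and 16 of the mitochondrial enzymes. The 12 other cytosolic genes are red in all 4 Doxo+Cyta+DAC libraries, while DARS and QARS at the foot of the first block are blue there, and most mitochondrial genes are blue in Doxo.

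The 12 cytosolic enzymes outside the multisynthetase complex all rose, by log2 fold changes of 0.51 to 0.98. WARS, which charges tryptophan tRNA and is also known as an interferon-inducible gene, had 39.8 and 40.4 CPM in NT, 45.0, 26.1 and 28.1 in Doxo, 30.7, 36.3 and 29.3 in Doxo+Cyta, and 71.3, 95.7, 80.3 and 69.7 in Doxo+Cyta+DAC. Its decitabine libraries did not overlap with any other, and the log2 fold change from NT was 0.98 ± 0.21 (SE; edgeR adjusted p = 0.00148). Of 10 other interferon-gamma response genes fixed as a list, 1 rose (GBP1) and 4 fell (B2M, GBP4, PSMB9, TAP1) in the same comparison. Of all tested genes 24.9% rose and 23.7% fell there.

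CARS, the cysteine enzyme, had 28.3 and 27.5 CPM in NT, 31.9, 18.9 and 19.6 in Doxo, 25.4, 29.6 and 22.7 in Doxo+Cyta, and 53.1, 54.6, 51.8 and 58.8 in Doxo+Cyta+DAC (log2 fold change from NT 0.97 ± 0.19, SE, edgeR adjusted p = 0.00104). VARS, the valine enzyme, had 183 and 181 CPM in NT, 155, 94.4 and 102 in Doxo, 134, 189 and 134 in Doxo+Cyta, and 374, 396, 362 and 297 in Doxo+Cyta+DAC (0.97 ± 0.20, edgeR adjusted p = 0.00137). The lowest decitabine library of either gene was above the highest of the other groups. Both genes have copies on alternate contigs of the assembly (1 for CARS and 6 for VARS), as has VARS2 (5). Fragments that aligned to several places may therefore be missing from the counts of these genes. FARSB, the beta subunit of the phenylalanine enzyme, had 97.7 and 88.0 CPM in NT, 87.5, 54.4 and 62.6 in Doxo, 66.8, 90.4 and 70.8 in Doxo+Cyta, and 181, 170.2, 182 and 179 in Doxo+Cyta+DAC (0.94 ± 0.17, edgeR adjusted p = 0.000623). FARSA, which encodes the alpha subunit of the same enzyme, changed by 0.76 ± 0.10 on the log2 scale (edgeR adjusted p = 6.92e-05). The remaining enzymes of this group were TARS (0.91), HARS (0.86), YARS (0.84), GARS (0.74), AARS (0.60), NARS (0.53) and SARS (0.51), all log2 fold changes that passed the test.

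Among the 8 enzymes of the complex 3 rose (37.5%), 2 fell (25%) and 3 did not pass the test, with a median log2 fold change of 0.25. The shares over all tested genes were 24.9% and 23.7%, so this mix lay near that of all genes. IARS, the isoleucine enzyme, had 139 and 149.8 CPM in NT, 159, 96.0 and 91.1 in Doxo, 100.4, 108 and 107 in Doxo+Cyta, and 305, 353, 342 and 329.5 in Doxo+Cyta+DAC. The decitabine libraries were all above the rest, 2.30-fold above NT (log2 fold change 1.20 ± 0.19, SE, edgeR adjusted p = 0.000163), and this was the largest change among the 37 genes in this comparison. MARS, the methionine enzyme, had 134 and 144 CPM in NT, 172, 95.3 and 101 in Doxo, 97.3, 138 and 92.4 in Doxo+Cyta, and 304, 297, 292 and 284 in Doxo+Cyta+DAC, again without overlap (1.08 ± 0.22, edgeR adjusted p = 0.00114). MARS shares 68 exon bases (2.33%) with DDIT3 on the opposite strand, and DDIT3 fell (log2 fold change -0.68, edgeR adjusted p = 0.00939). Counting did not use strand, and fragments overlapping several genes were left out by default.

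QARS, the glutamine enzyme, and DARS, the aspartate enzyme, went the other way. QARS had 479.7 and 452 CPM in NT, 441, 530.1 and 526 in Doxo, 527, 537 and 502 in Doxo+Cyta, and 332, 345, 319 and 291 in Doxo+Cyta+DAC, the lowest values of the 12 libraries (log2 fold change from NT -0.53 ± 0.10, SE, edgeR adjusted p = 0.000869). DARS, named here after its values were seen, had 265 and 253 CPM in NT, 279, 368 and 371 in Doxo, 336, 245 and 369.7 in Doxo+Cyta, and 136, 154, 158 and 179.6 in Doxo+Cyta+DAC (-0.72 ± 0.16, edgeR adjusted p = 0.00223). Its decitabine libraries lay below all others, and Doxo 4 and Doxo+Cyta 20 lay nearer to NT than the other libraries of their groups. DARS shares 114 exon bases (3.61%) with the antisense gene DARS-AS1. KARS, the lysine enzyme, changed by 0.28 ± 0.10 (edgeR adjusted p = 0.033), a call that was lost in 11 of the 19 alternatives tried, and LARS (0.28 ± 0.13, adjusted p = 0.0935), RARS (0.21 ± 0.11, adjusted p = 0.116) and EPRS (0.07 ± 0.12, adjusted p = 0.628) did not pass edgeR's test. LARS passed it in 3 of the 19 alternatives, among them without Doxo 4 (0.26, edgeR adjusted p = 0.018), and did not in 16.

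The scaffolds were mixed as well. AIMP2 rose by 0.93 ± 0.19 and EEF1E1 by 0.68 ± 0.25 on the log2 scale, and AIMP1 fell by 0.34 (SE 0.12) (edgeR adjusted p = 0.00121, 0.0365 and 0.0351). By structural class of the enzymes, of the 10 cytosolic genes of class I, 6 rose and 1 fell, and of the 10 of class II, 9 rose and 1 fell. The 3 class I genes that did not pass the test (LARS, RARS and EPRS) belong to the complex, so these groupings overlap. The shares over all tested genes were 24.9% higher and 23.7% lower.

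**Figure D2:**
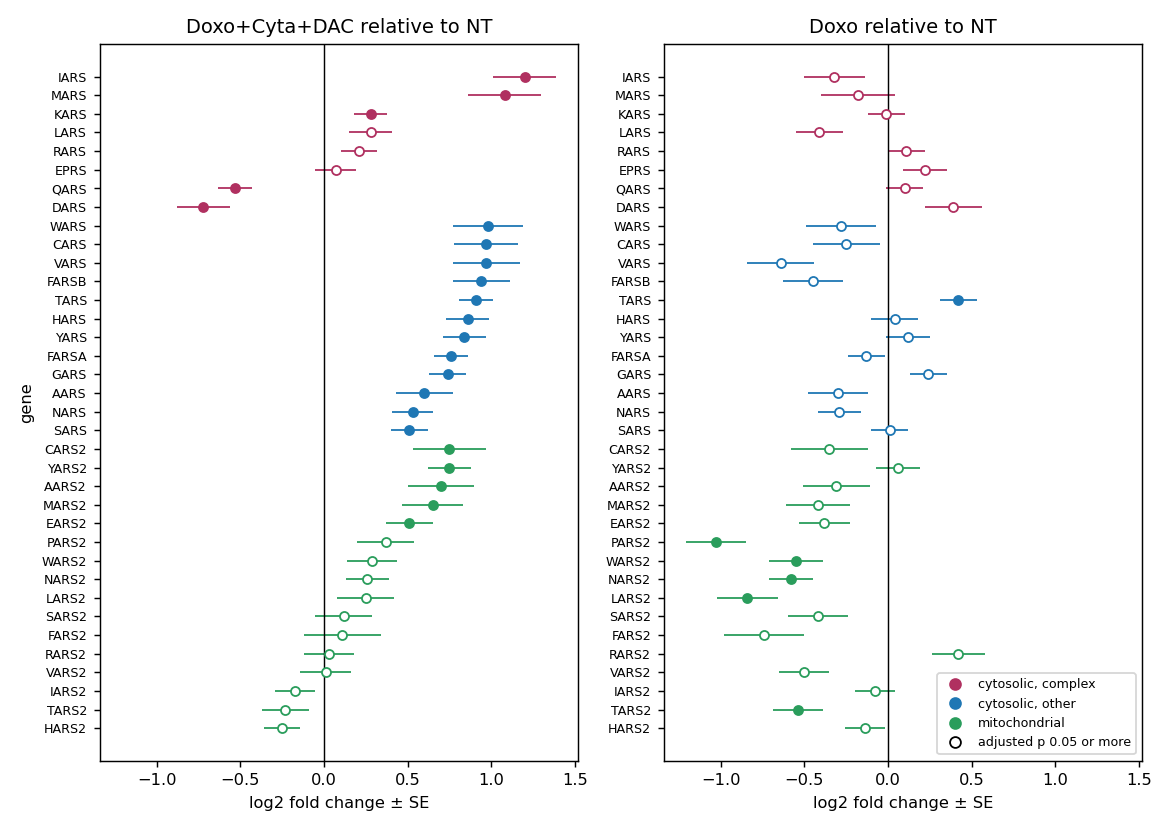
Log2 fold change ± SE (horizontal axes) of 36 of the 37 genes in Doxo+Cyta+DAC relative to NT (left) and in Doxo relative to NT (right), in the same gene order, with filled points for genes with an adjusted p under 0.05. On the left all 12 cytosolic genes outside the complex are filled and above 0, and the complex spans -0.72 to 1.20, whereas on the right the filled points are TARS above 0 and 5 mitochondrial genes below it.

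The mitochondrial genes that rose included CARS2, YARS2, AARS2, MARS2 and EARS2. CARS2, the cysteine enzyme, had 35.7 and 30.0 CPM in NT, 34.1, 19.9 and 23.5 in Doxo, 22.1, 33.6 and 21.9 in Doxo+Cyta, and 61.5, 50.2, 58.6 and 50.9 in Doxo+Cyta+DAC (log2 fold change from NT 0.75 ± 0.22, SE, edgeR adjusted p = 0.0112). YARS2, the tyrosine enzyme, had 26.2 and 24.2 CPM in NT, 24.0, 25.2 and 29.7 in Doxo, 27.1, 24.4 and 22.9 in Doxo+Cyta, and 43.9, 43.2, 42.5 and 39.6 in Doxo+Cyta+DAC (0.75 ± 0.13, edgeR adjusted p = 0.000411). Neither gene's decitabine libraries overlapped with those of another group. AARS2, the alanine enzyme, had 43.5 and 44.2 CPM in NT, 48.0, 31.5 and 27.0 in Doxo, 31.7, 42.8 and 30.9 in Doxo+Cyta, and 70.1, 72.4, 76.3 and 66.3 in Doxo+Cyta+DAC (0.70 ± 0.20, edgeR adjusted p = 0.00999), and in both relapse groups without decitabine the library that stood apart was the highest.

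MARS2 and EARS2, the methionine and glutamate enzymes, changed by 0.65 ± 0.18 and 0.51 ± 0.14 on the log2 scale (edgeR adjusted p = 0.00884 and 0.0078). Of these 5 calls, that of YARS2 held without either NT library. Without NT 1 the edgeR adjusted p was 0.0762 for AARS2, 0.084 for MARS2 and 0.0845 for EARS2, and without NT 2 it was 0.0652 for AARS2, 0.0512 for MARS2 and 0.118 for CARS2. The same held for the cytosolic AARS, whose adjusted p was 0.0815 without NT 1 and 0.0646 without NT 2.

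The genes of the cytosolic and the mitochondrial enzyme for the same amino acid could be set side by side in 18 pairs, with EPRS paired with both EARS2 and PARS2 and FARS2 with both FARSA and FARSB. In Doxo+Cyta+DAC relative to NT both genes rose in 4 pairs (alanine, cysteine, methionine and tyrosine), and the cytosolic gene alone passed the test for a rise in 9. The log2 fold change was larger for the cytosolic gene in 14 pairs, with a median difference of 0.33. The isoleucine pair lay far apart, with IARS at 1.20 and IARS2 at -0.17 (edgeR adjusted p = 0.246), and the difference within a pair was not tested.

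HARS and HARS2, the cytosolic and mitochondrial histidine enzymes, lie head to head on chromosome 5 (HARS at chr5:140673904-140691727 on the minus strand, HARS2 at chr5:140691426-140699321 on the plus strand, in the coordinates of the count table), and are described after their values were seen. Between their RefSeq starts lie 84 bases (chr5:140691371-140691454, GRCh38.p14, plus strand, 59.5% G or C), shown because both genes start from it.
HARS to HARS2: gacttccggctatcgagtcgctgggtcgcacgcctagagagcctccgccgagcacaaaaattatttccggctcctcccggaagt
HARS had 71.1 and 69.2 CPM in NT, 82.8, 65.5 and 68.4 in Doxo, 67.0, 84.5 and 65.0 in Doxo+Cyta, and 134.9, 123, 125 and 125 in Doxo+Cyta+DAC, with no overlap of the decitabine libraries (log2 fold change from NT 0.86 ± 0.13, SE, edgeR adjusted p = 0.000184). HARS2 had 43.6 and 43.0 CPM in NT, 35.9, 41.0 and 40.8 in Doxo, 43.2, 48.0 and 42.3 in Doxo+Cyta, and 36.4, 36.5, 36.2 and 36.2 in Doxo+Cyta+DAC, which lay below both NT libraries and below all Doxo+Cyta libraries. Relative to NT the change was -0.25 ± 0.11 (edgeR adjusted p = 0.0688, or 0.0298 without Doxo 4 and 0.0222 without Doxo+Cyta 20), and relative to Doxo+Cyta HARS2 fell by 0.29 (SE 0.10, edgeR adjusted p = 0.0177). In the annotation behind the counts both genes share 302 exon bases, 13.1% of HARS and 11.6% of HARS2, where fragments could not be given to either gene.

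In Doxo relative to NT most of the synthetase genes that passed the test over all libraries were mitochondrial and lower, but cytosolic genes also fell when libraries that stood apart were left out. Of the 17 mitochondrial genes, 6 fell (among them LARS2, NARS2, PARS2, TARS2 and WARS2) and none rose (edgeR, 1 with an unadjusted p under 0.05 among those higher, and 0 called higher by DESeq2), while 1 of 20 cytosolic genes (TARS) rose and none fell (edgeR, 4 lower at an unadjusted p under 0.05 and 2 lower by DESeq2). Without Doxo 4, 11 mitochondrial and 8 cytosolic genes fell, and without both libraries that stood apart, 13 and 9 did. Over all tested genes 6.06% rose and 4.63% fell with all libraries, 1515 calls in either direction. Without Doxo 4 there were 3137 calls among 14117 tested genes, and without both libraries 5267 among 14078. The median log2 fold change was -0.42 over the mitochondrial and -0.07 over the cytosolic genes, and 0.01 over all tested genes. For 12 mitochondrial genes every Doxo library lay below both NT libraries, which 24.5% of all tested genes did.

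PARS2, the mitochondrial proline enzyme, had 6.84 and 7.86 CPM in NT, 3.91, 3.32 and 3.60 in Doxo, 5.81, 5.80 and 5.19 in Doxo+Cyta, and 8.58, 8.67, 9.97 and 10.9 in Doxo+Cyta+DAC. The 4 groups did not overlap, with Doxo lowest. In Doxo relative to NT, PARS2 had the largest change among the 37 genes (log2 fold change -1.03 ± 0.18, SE, edgeR adjusted p = 0.00543). LARS2, the leucine enzyme, had 44.2 and 42.9 CPM in NT, 31.7, 21.0 and 20.5 in Doxo, 28.7, 29.4 and 28.7 in Doxo+Cyta, and 56.1, 52.3, 55.9 and 42.4 in Doxo+Cyta+DAC (Doxo relative to NT -0.84 ± 0.18, edgeR adjusted p = 0.0115). In LARS2, Doxo 4 was the Doxo library nearest to NT.

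TARS, the cytosolic threonine enzyme, had 179.7 and 177 CPM in NT, 247, 226 and 244 in Doxo, 180.2, 190.1 and 183 in Doxo+Cyta, and 297, 363, 342 and 343 in Doxo+Cyta+DAC. Doxo lay wholly above NT and Doxo+Cyta (log2 fold change from NT 0.42 ± 0.11, SE, edgeR adjusted p = 0.0248). These counts rested on single libraries. Of the 37 genes, 7 passed the test in Doxo relative to NT, 1 did without Doxo 5 and 1 without Doxo 6. Without Doxo 4 the number was 20, without Doxo+Cyta 20 it was 12, and without both libraries that stood apart it was 25. Over all genes the calls were 462 without Doxo 5 and 500 without Doxo 6, against 1515 with all libraries. They were 3137 without Doxo 4, 2585 without Doxo+Cyta 20 and 5267 without both libraries that stood apart. Leaving out 1 NT library gave a log2 fold change of -1.13 (without NT 1) or -0.93 (without NT 2) for PARS2. Without Doxo 4 the median of the mitochondrial genes moved to -0.63.

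In Doxo+Cyta relative to NT, 1 of the 17 mitochondrial genes fell, and no other synthetase gene passed the test (edgeR; 8 genes had an unadjusted p under 0.05, and DESeq2 called 3, all of them mitochondrial and lower). Over all tested genes 0.911% rose and 0.551% fell. The median log2 fold change was -0.32 over the mitochondrial and 0.03 over the cytosolic genes, and 0.01 over all tested genes. The count was 0 without any 1 of the Doxo+Cyta libraries. Over all genes the calls were then 26 without Doxo+Cyta 19, 226 without Doxo+Cyta 20 and 49 without Doxo+Cyta 22. Leaving out single libraries gave a mitochondrial median of -0.37 to -0.25. Without both libraries that stood apart, 12 of the 37 genes passed the test: 5 mitochondrial and 6 cytosolic genes fell, and 1 cytosolic gene rose. In that fit 2037 of the 14078 tested genes passed it in either direction, against 207 with all libraries. The shares of all tested genes given above belong to the fit with all libraries.

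Doxo+Cyta and Doxo differed little in these genes. TARS fell in Doxo+Cyta relative to Doxo (log2 fold change -0.37 ± 0.09, SE, edgeR adjusted p = 0.0458), and none rose (edgeR, 5 higher at an unadjusted p under 0.05, and 1 higher by DESeq2). Over all tested genes 1.07% rose and 2.32% fell. PARS2 came next with 0.64 ± 0.17 and an edgeR adjusted p of 0.0579, and the median was 0.00 over the cytosolic and 0.18 over the mitochondrial genes. The TARS call was lost without Doxo 4, where its log2 fold change was -0.33 (edgeR adjusted p = 0.0672). There 4 synthetase genes passed the test, and 877 of the 14117 tested genes did, against 481 with all libraries. Without Doxo 5 or Doxo 6 none of the 37 genes passed it (edgeR), when 168 and 186 of all tested genes did.

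Set against the relapses without decitabine, most genes of both compartments were higher. In Doxo+Cyta+DAC relative to Doxo, 16 cytosolic genes rose and 2 fell (DARS, QARS), and 14 mitochondrial genes rose and 1 fell (RARS2), when 29.1% of all tested genes rose and 30.4% fell. The median log2 fold change was 0.77 over the cytosolic and 0.84 over the mitochondrial genes, and -0.01 over all tested genes. VARS had the largest change (1.61 ± 0.18, SE, edgeR adjusted p = 5.75e-06), and IARS was among the next (1.53 ± 0.16, adjusted p = 4.02e-06). Without Doxo 4 the change of IARS was 1.83. DARS fell by 1.12 (SE 0.14, edgeR adjusted p = 1.98e-05) and QARS by 0.63 (SE 0.09, adjusted p = 5.58e-05).

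Relative to Doxo+Cyta, 15 cytosolic genes rose in the decitabine relapses and 2 fell (DARS, QARS), and 10 mitochondrial genes rose and 1 fell (HARS2), when 29.8% of all tested genes rose and 30.5% fell. The median was 0.77 over the cytosolic and 0.61 over the mitochondrial genes, and 0.00 over all tested genes. IARS (1.66 ± 0.16, SE, edgeR adjusted p = 1.6e-06) had the largest change, and MARS was among the next (1.43 ± 0.19, adjusted p = 2.21e-05). The 12 cytosolic genes outside the complex rose in this comparison too, by 0.48 or more, as they did relative to Doxo, by 0.49 or more. The 3 comparisons share the Doxo+Cyta+DAC libraries, so that they are not independent of each other.

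Levels were compared between genes per kilobase of exon. In NT the highest cytosolic genes were QARS with 165 ± 6.85 CPM per kb (SD, n = 2), YARS with 93.0 ± 1.05 and KARS with 92.4 ± 5.20, and the lowest was CARS with 9.88 ± 0.207. YARS and KARS overlapped in their ranges, and QARS stood above both. CARS may be set too low here, because fragments shared with its copy on an alternate contig may be missing. In Doxo+Cyta+DAC the order at the top changed: YARS, the tyrosine enzyme, reached 167 ± 3.75 CPM per kb (SD, n = 4) and stood alone, while FARSA, QARS (114 ± 8.23) and KARS (112 ± 6.89) overlapped. YARS shares 248 exon bases (7.96%) with S100PBP on the opposite strand.

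Among the mitochondrial genes IARS2, the isoleucine enzyme, had the highest mean in every group, with 49.7 ± 0.808 CPM per kb in NT (SD, n = 2) and 44.2 ± 1.72 in Doxo+Cyta+DAC (SD, n = 4), followed by SARS2, the serine enzyme, with 36.4 ± 1.44 and 39.5 ± 7.28, and the pair overlapped in Doxo+Cyta+DAC. RARS2, the arginine enzyme, had 20.0 ± 0.490 CPM per kb in NT, 26.7 ± 1.51 in Doxo (SD, n = 3), 25.1 ± 2.43 in Doxo+Cyta (SD, n = 3) and 20.4 ± 3.71 in Doxo+Cyta+DAC, and its fall relative to Doxo (log2 fold change -0.39 ± 0.14, SE, edgeR adjusted p = 0.0236) was the 1 such call among mitochondrial genes. PARS2 was the lowest in NT, with 3.08 ± 0.302. SARS2 shares 189 exon bases (8.85%) with MRPS12 on the opposite strand. Of the 19 neighbouring pairs in the cytosolic order, 5 overlapped in NT and 15 in Doxo+Cyta+DAC, and of the 16 in the mitochondrial order, 5 and 13 did. A range over 2 NT libraries tends to be narrower than a range over 4 libraries. These counts therefore cannot be compared between the groups.

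Other genes of tRNA charging and of the steps after it were taken from lists. In Doxo+Cyta+DAC relative to NT, 4 of 13 tested genes of charging and its accessory steps rose (30.8%) and 2 fell (15.4%). These shares stand beside 24.9% and 23.7% of all tested genes. GATB (0.86 ± 0.17) and QRSL1 (0.57 ± 0.13), subunits of the amidotransferase that makes glutaminyl-tRNA in mitochondria, rose, and the third subunit GATC had 0.17 ± 0.14 (edgeR adjusted p = 0.00116, 0.00284 and 0.339). PTRH2, a peptidyl-tRNA hydrolase, rose by 0.99 on the log2 scale (edgeR adjusted p = 3.66e-05). PSTK, an enzyme in making selenocysteine on its tRNA, rose by 0.64, and SEPSECS, the next enzyme of that route, fell by 0.85 (edgeR adjusted p = 0.0155 and 0.00393).

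The 5 tested cytosolic elongation factor genes had log2 fold changes of -0.29 to 0.28, with edgeR adjusted p of 0.0837 to 0.566. Of the 6 mitochondrial translation factor genes, 3 rose and 2 fell, when 24.9% of all tested genes rose and 23.7% fell. The elongation factors TSFM (1.03 ± 0.19), GFM1 (0.92 ± 0.12) and TUFM (0.58 ± 0.15) rose, and the initiation factors MTIF2 (-0.36 ± 0.13) and MTIF3 (-0.56 ± 0.14) fell (SE; edgeR adjusted p = 0.000636, 5.54e-05, 0.00644, 0.039 and 0.00393).

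Of the 24 tested genes of the ATF4 response, 10 rose (41.7%) and 4 fell (16.7%) in Doxo+Cyta+DAC relative to NT. Of all tested genes 24.9% rose and 23.7% fell. The median log2 fold change was 0.33 over the list and 0.02 over all tested genes. Those that rose included the amino acid transporters SLC7A11 (1.47 ± 0.23), SLC7A5 (1.35 ± 0.24), SLC7A1 (1.35 ± 0.15) and SLC1A5 (1.00 ± 0.20) and the serine synthesis genes PSAT1 (1.45 ± 0.29), PSPH (1.37 ± 0.35) and PHGDH (0.89 ± 0.29) (SE; edgeR adjusted p = 0.000192, 0.000417, 1.25e-05, 0.00112, 0.00102, 0.00538 and 0.0198). Those that fell were VLDLR (-3.13), DDIT4 (-1.37), CHAC1 (-1.05) and DDIT3 (-0.68). ATF4 itself rose by 0.33 ± 0.10 relative to NT (edgeR adjusted p = 0.0166) and fell by 0.32 relative to Doxo (adjusted p = 0.00687). Relative to Doxo, 9 genes of the list rose (37.5%) and 8 fell (33.3%), when 29.1% of all tested genes rose and 30.4% fell. In Doxo relative to NT, ATF4 rose by 0.65 (edgeR adjusted p = 0.00386). There 4 of the 24 genes rose (16.7%, against 6.06% of all tested genes), beside the 1 cytosolic synthetase gene that rose. Of the 8 erythroid and megakaryocytic genes, 3 (37.5%) fell in Doxo+Cyta+DAC relative to NT (GATA1, ITGA2B, KLF1), when 23.7% of all tested genes fell. Their summed levels were 5864 to 8031 CPM against 7608 to 8858 in NT, and their part in the synthetase values was not tested.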

How the data were processed

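RNA of 12 HEL libraries was sequenced as paired-end reads. The authors filtered reads for quality, aligned them to GRCh38 with Bowtie2 2.2.8 and counted fragments per gene with featureCounts 1.6.0 without regard to strand, and the deposited values are these raw counts. An aligner without spliced alignment can lose junction fragments, which lowers the counts of genes with short exons. Of 26485 genes, 4 with a missing count were left out. The series text names 3 untreated replicates, and the 2 that are labelled were used.

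In R 4.3.3, filterByExpr of edgeR 4.0.16 kept 14164 genes, TMM scaled the library sizes, and a single quasi-likelihood model of the 12 libraries (glmQLFit, glmQLFTest, two-sided) gave 6 comparisons, each adjusted by Benjamini-Hochberg over all tested genes. The SE of a log2 fold change is its size divided by the root of F. The tests were first run on simulated data with known changes. Levels per kilobase use the exon length on the primary chromosome. No pair of libraries within a group was a duplicate by a chi-square test of counts. A limit of 3 counts covers counting error only.

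The genes named in full were, by rule, the 6 cytosolic and 4 mitochondrial called genes of largest absolute change between Doxo+Cyta+DAC and NT, the 3 such genes in each other comparison, the 3 highest of each compartment per kilobase, and the promoters with TGATGNAA (at most 5). Of the genes in the counts, medians and sums, 1 is not reported here by itself. Members and lists were chosen with earlier results of these data known. Alternatives were the Wald test of DESeq2 1.42.0, RLE and upper-quartile scaling, no filter, at least 10 counts in every sample, only the groups compared, and leaving out each library. Promoter sequences are from RefSeq (GRCh38.p14), and other steps used Python 3.11.15 with pandas 2.3.3, numpy 2.4.6 and matplotlib 3.10.9.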

Additional observations from a re-analysis of the deposited data

Results flagged for a closer look

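In the 4 Doxo+Cyta+DAC libraries, 39 values were examined for a library far from the others by Dixon's test (the 37 genes and both sums), and 2 passed its 95% critical value. Both concern replicate 33, the library with the lowest total count (12763582). EPRS, the glutamate and proline enzyme, had 521.8 CPM there against 440.9 to 448.8 in the other 3 libraries. The summed mitochondrial level was 786.5 CPM there against 854.7 to 861.6. Chance alone marks about 1 in 20 groups.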

How the results depend on the processing

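Directions were followed for all synthetase genes in Doxo+Cyta+DAC relative to NT. In each other comparison they were followed for the 3 called synthetase genes of largest change. None of these that passed the test changed direction under the alternatives. The named genes of the other lists were not followed. In Doxo+Cyta+DAC relative to NT, EPRS, FARS2, RARS2 and VARS2, which did not pass it, had log2 fold changes on both sides of 0, and the cytosolic median in Doxo+Cyta relative to NT moved from 0.03 to as low as -0.08. The 3 comparisons with Doxo+Cyta+DAC were the most stable: 16 of 23 called genes relative to NT, 31 of 33 relative to Doxo (not TARS2 and RARS2) and 27 of 28 relative to Doxo+Cyta (not HARS2) passed the test under every alternative, and the counts were 17 to 28, 31 to 34 and 27 to 30. In the other 3 comparisons no call held throughout (0 of 7, 0 of 1 and 0 of 1). DESeq2 called 11 synthetase genes in Doxo relative to NT (7 with edgeR), 3 in Doxo+Cyta relative to NT (1) and 2 in Doxo+Cyta relative to Doxo (1). In Doxo+Cyta relative to NT the count was 0 with upper-quartile scaling, with at least 10 counts in every sample and with only the groups compared, and in Doxo+Cyta relative to Doxo it was 0 with no filter on low counts and with only the groups compared. Leaving out single libraries gave 0 to 20 calls in Doxo relative to NT, 0 to 4 in Doxo+Cyta relative to NT and 0 to 4 in Doxo+Cyta relative to Doxo, and a mitochondrial median of -0.63 to -0.4 in Doxo relative to NT. Leaving out both libraries that stood apart, an alternative chosen after seeing the data, gave 25, 12 and 4 calls and a mitochondrial median of -0.63. The calls over all genes were then 5267, 2037 and 1261. Over all genes, Doxo+Cyta relative to NT had 207 calls, 828 with DESeq2 and 13 with only the groups compared, and Doxo+Cyta relative to Doxo had 481, 917 and 67. The cause of these differences was not tested. Leaving out 1 NT library leaves 1, which is then assumed to vary like the other groups. No scaling moved the median of all genes by more than 0.1 on the log2 scale. No paired analysis was possible because the groups share no replicate number in the labels. With 2 NT libraries, comparisons with NT are the least precise, and the labels name no batch.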
